A study of Mus musculus with 6 samples.

Results

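The distal end of mouse chromosome 16 carries most of the mouse counterparts of the genes of human chromosome 21 (HSA21), the chromosome that is present in an extra copy in Down syndrome. The members described here were defined by position, with earlier results of these data known. They are the listed genes of chromosome 16 that start at or above 75 Mb in the genome build mm9. Left out are the 13 listed genes from Setd4 to Dscr3, a window that holds Sim2 and its near neighbours. This gave 139 genes of the 22602 in the table, and 52 of them had a mean of at least 1 RPKM (reads per kilobase of cDNA, scaled to the size of the library) over 6 libraries. The libraries are mRNA of mouse embryonic stem (ES) cells. Clones A6, B8 and C4 (1 culture each) carry a Flag-tagged mouse Sim2 gene with Venus at the ROSA26 locus, under a modified human CMV promoter that a tetracycline-regulated transactivator switches on, and EB3 (EBRTcH3; cultures 0, 1 and 2) is the parental line, which holds the inducible system and Venus but no Sim2-Flag. All 6 cultures had been without tetracycline for 26 h. The clones and EB3 are each derived from 1 line, so the p-values measure the spread between these clones and cultures.

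SIM2 is itself encoded on HSA21. Among the other genes of the stretch, App encodes the precursor of amyloid beta, Sod1 the cytosolic superoxide dismutase, Dyrk1a a kinase that acts in neural development, and Bach1, Runx1 and Ets2 transcription factors. The stretch also holds a block of interferon receptor genes, a cluster of genes for keratin-associated proteins of the hair shaft, and 5 microRNA genes. The comparison asks whether these neighbours of Sim2 in the Down syndrome region differ in mRNA level when Sim2 is expressed from another chromosome.

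The label of the stretch was checked on its 6 marker genes, which all lie in it. Of these, 5 were expressed at 1 RPKM or more, and Runx1, a regulator of blood formation, was not (0.140 RPKM on average). The listed position overlapped the mm9 annotation for 125 of the 126 members whose symbol it holds. The shallowest library, A6, had 25095861 reads, and the deepest, C4, had 28269340. Sim2 was at 168 to 212 RPKM in the 3 clones and at 0.0917 to 0.130 RPKM in EB3. All 6 pluripotency markers exceeded 1 RPKM, with a summed level of 2906 to 3124 RPKM in the clones and 3079 to 3412 in EB3. The fibroblast list summed to 10.7 to 13.8 RPKM in the clones and 10.05 to 13.3 in EB3, nearly all of it Thy1, with Postn and Lum at 0. The primitive endoderm list reached 3.97 to 5.22 RPKM in the clones and 2.60 to 3.33 in EB3, with 1 of 6 markers above 1 RPKM. The neural list summed to 86.6 to 108 RPKM in the clones and 133 to 147 in EB3 (4 of 5 markers above 1 RPKM), mostly Tubb3 at a mean of 102. The part of these marker differences in the results below was not tested. In bulk RNA, fewer cells of a type and less RNA per cell cannot be told apart.

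Hmgn1, which encodes a nucleosome-binding protein that loosens chromatin, led with a mean of 555 RPKM and ranked at place 63 among the 11595 tested genes. It was followed by Sod1 at 332 RPKM, Cct8 (a subunit of the CCT chaperonin) at 291, Atp5j (a subunit of the mitochondrial ATP synthase) at 215 and Gart (an enzyme of purine synthesis) at 190. These 5 were the only members above 100 RPKM. Next came Psmg1, a chaperone of proteasome assembly, at 91.3 RPKM, Atp5o, another ATP synthase subunit, at 86.1, the splicing factor Son at 72.9, the mitochondrial ribosomal protein gene Mrpl39 at 58.7 and the junction gene Jam2 at 48.9. Stretches of the exons of 10 expressed members have copies elsewhere in the genome, so their values are uncertain where reads were shared. Besides genes named for this below, they include Atp5o (371 bases on chromosome 12, 97.57% identity) and Gabpa (868 bases on chromosome 2, 91.47% identity). Dyrk1a (473 bases on chromosome 15, 90.28% identity) and Ifnar1 (200 bases on chromosome 16, 95% identity) are others. The median over the expressed members was 11.2 RPKM, against 12.8 for all tested genes. App, at the other end, had 1.15, 0.971 and 1.30 RPKM in A6, B8 and C4 and 0.819, 0.991 and 0.982 in EB3-0, EB3-1 and EB3-2. It lay just above the limit, as did Slc5a3 (1.06 RPKM) and Usp25 (1.14), while Adamts1 (0.888 RPKM) and Krtap16-8 (0.678) lay just below it. App passed only through the clones, with a mean of 1.14 RPKM there and 0.931 in EB3.

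**Figure D1:**
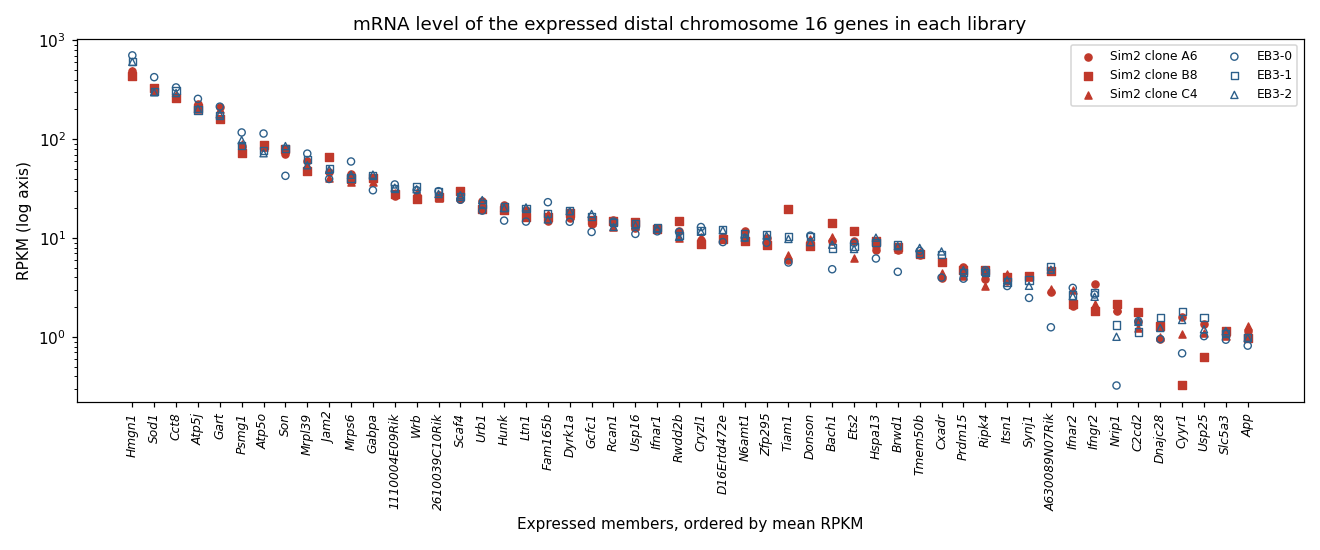
RPKM on a log axis of each of the 52 expressed members in each library, ordered by mean. Filled red points are the clones A6, B8 and C4, open blue points the EB3 cultures. The points of a gene mostly lie close together across libraries, from Hmgn1 at a mean of 555 RPKM to App at 1.04.

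The other 87 members were below 1 RPKM. The share expressed was 37.4%, against 51.3% of all listed genes and 52.7% of the 558 listed genes on the rest of chromosome 16 upstream of the stretch. Most of the silent genes stand in long runs. Between Bach1 and Tiam1, 31 neighbouring genes from the glutamate receptor gene Grik1 to Krtap11-1 were all below the limit over 1.68 Mb, among them all 22 Krtap genes. A run of 12 genes from Lca5l to Tmprss2 over 1.45 Mb holds the neural adhesion gene Dscam, the protease gene Bace2 and the antiviral genes Mx1 and Mx2. Another run of 7 genes includes Ncam2 and spans 6.15 Mb. Without the Krtap and microRNA genes, 52 of 112 members (46.4%) were expressed. Of the 87 silent genes, 46 had 0 reads in all 6 libraries, and 58 had at most 3 reads in every library. The glial and neural factors were low, with 20 to 28 reads of Olig1 in each library (mean 0.439 RPKM) and at most 5 reads of Olig2. Runx1 had 28, 36 and 24 reads in A6, B8 and C4 and 14, 21 and 35 in the EB3 cultures, so the groups overlapped. Erg had at most 12 reads in any library. When limma was fitted with no filter on low values, 41 of the 87 silent members had a read in some library and were tested. None was called, against 0.156% of all genes in that fit. The groups did not overlap for 5 of these 41 (12.2%), against 13.5% of all genes under 1 RPKM with a read. Btg3 (mean 0.171 RPKM) matches a stretch of chromosome 17 over 1360 bases (99.85% identity) and shares its listed position with Gm7334, so its low value is uncertain where reads were shared.

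The 5 microRNA genes had 0 reads in all libraries. Their listed hairpins are 65 to 97 bases long, shorter than the sequenced reads of 100 bases, so these libraries do not measure them. Their main mature sequences (from RefSeq, GRCm38.p6) are shown because they are the HSA21 genes that the RPKM table cannot inform on. The capitals mark the seed, bases 2 to 8.
mmu-miR-99a-5p: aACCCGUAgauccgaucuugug
mmu-let-7c-5p: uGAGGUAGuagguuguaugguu
mmu-miR-125b-5p: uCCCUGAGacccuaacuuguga
mmu-miR-155-5p: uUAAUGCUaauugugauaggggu
mmu-miR-802-5p: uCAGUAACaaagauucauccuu
The 5 seeds all differ. The let-7c-5p sequence is also made from Mirlet7c-2 and that of miR-125b-5p from Mir125b-1, which are not members.

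Between the clones and EB3, 0 of the 52 expressed members differed at an adjusted p under 0.05 (limma on log2(RPKM + 0.5), adjusted over all 11595 tested genes by the Benjamini-Hochberg method). The study's own test on counts reported more genes at the same threshold. In the fit used here the background was low, with 0.699% of all tested genes called. At an unadjusted p under 0.05 there were 6 members (11.5%), against 17.8% of tested genes. The median log2 fold change of the members was -0.02, with 25 members higher in the clones and 27 lower, and it was -0.01 over all tested genes. By clone, the median log2 ratio of the members to the EB3 mean was -0.02 for A6, 0.01 for B8 and -0.07 for C4. As a background, each EB3 culture was compared with the mean of the remaining EB3 cultures, which gave a median of -0.14 for EB3-0, 0.09 for EB3-1 and 0.08 for EB3-2. Over the other ways of fitting in which no member was called, the share of tested genes called was 0.673% or 0.699% with another pseudocount, 0.156% with no filter, 0.569% with median-centred libraries, 0.552% with limma-voom and 0.0517% with EB3-1 and EB3-2 averaged. It was 0.172% without A6, 0.147% without B8, 0.0604% without C4, and 0.0517% without EB3-1 or without EB3-2.

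A p that misses the threshold does not show equal levels, so the 95% interval of each fold change was read against a change of 1.5-fold (0.58 on the log2 scale), the change in dose that an extra gene copy brings. On the scale of the fit, the whole interval lay within 1.5-fold in either direction for 36 of 52 members (69.2%). Among all tested genes the share was 63.2%. The pseudocount makes changes of low genes look smaller, so some of these intervals may exceed 1.5-fold in RPKM. C2cd2, with a mean of 1.41 RPKM and an interval of -0.30 to 0.52, is such a member. Both shares are therefore upper limits for RPKM. Among the markers the interval lay within 1.5-fold on the scale of the fit for Sod1 (log2 fold change -0.07, interval -0.40 to 0.25) and Dyrk1a (-0.03, -0.32 to 0.26). The same held for Ets2 (0.10, -0.38 to 0.57), but its upper end was so close to 0.58 that the change in RPKM may reach 1.5-fold. The interval was not within 1.5-fold for Bach1 (0.64, 0.10 to 1.17), nor for App, whose interval ran from -0.20 to 0.59. The widest intervals belonged to A630089N07Rik, Tiam1 and Cyyr1. For Tiam1, which encodes an activator of the GTPase Rac, the interval was -0.80 to 1.12.

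**Figure D2:**
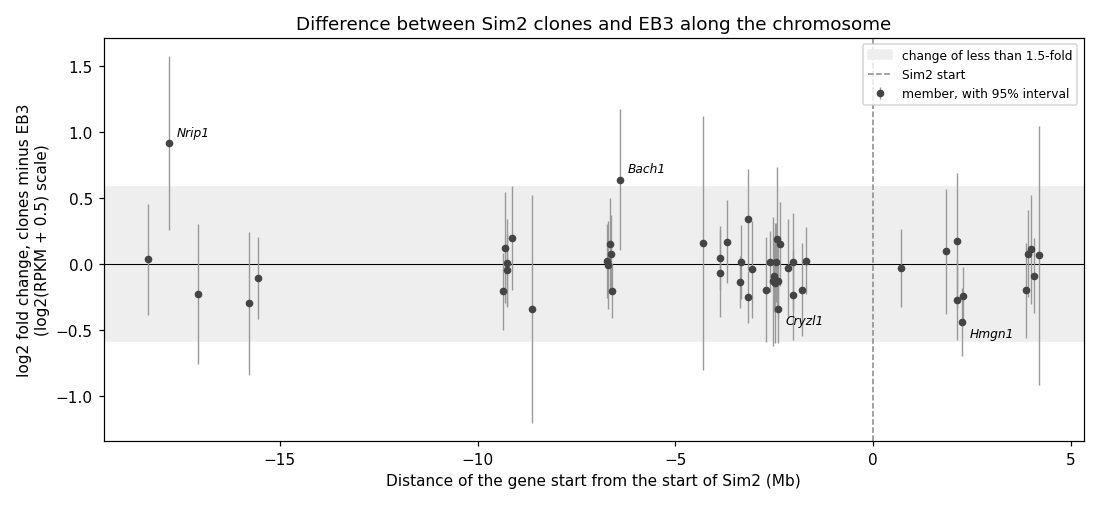
Log2 fold change of the 52 expressed members (clones minus EB3, log2(RPKM + 0.5) scale) with 95% intervals from limma, against the distance of the gene start from the start of Sim2 in Mb. The grey band marks a change of less than 1.5-fold on this scale, and the dashed line the start of Sim2. Points above and below 0 are mixed along the whole stretch, with Nrip1 (0.91) the highest and Hmgn1 (-0.44) the lowest. Nrip1 passed the limit of 1 RPKM only through the clones.

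By distance from the endogenous Sim2 gene, the median log2 fold changes lay between -0.11 and 0.01. The median was -0.11 for the 5 expressed members that start 15.5 to 18.3 Mb upstream of it, 0.01 for the 12 members at 6.39 to 9.37 Mb, and -0.04 for the 22 members at 2.03 to 4.30 Mb. The 2 members nearest upstream, at 1.69 and 1.78 Mb, had a median of -0.08. Downstream, the 11 members at 0.706 to 4.20 Mb had a median of -0.03. Dyrk1a, the nearest of all, had 15.8, 18.0 and 17.2 RPKM in the clones and 14.6, 19.1 and 18.7 RPKM in EB3. The groups overlapped.

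The members with the largest differences did not pass the test. Hmgn1 (chromosome 16, 96343195 to 96349332) had the lowest p of the members. It was at 495, 432 and 486 RPKM in A6, B8 and C4 and at 704, 609 and 605 RPKM in EB3-0, EB3-1 and EB3-2. All 3 clones were below all 3 EB3 cultures. The means were 471 ± 34.0 and 639 ± 56.0 RPKM (SD, n = 3 each), or -0.44 ± 0.11 on the log2 scale (SE; adjusted p = 0.107 from limma). Hmgn1 was called when EB3-0 was left out (-0.37, adjusted p = 0.0400 from limma) and when trends with cDNA length (-0.37, adjusted p = 0.0397) or with cDNA length and GC content (-0.43, adjusted p = 0.0274) were removed, where 5.99%, 2.16% and 1.68% of tested genes were called. Stretches of its exons have 13 copies elsewhere in the genome, the longest of them on chromosome 17 (977 bases, 90.69% identity), so its value is uncertain where reads were shared.

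Nrip1 (76291107 to 76373294), which encodes a corepressor of nuclear receptors, had 1.81, 2.16 and 1.95 RPKM in the clones and 0.324, 1.32 and 1.01 RPKM in EB3. The clones were all above EB3, and EB3-0 was far below the other EB3 cultures. This was 0.91 ± 0.29 on the log2 scale (SE; adjusted p = 0.163 from limma). Without EB3-0 it was 0.58 (adjusted p = 0.0939 from limma). Nrip1 passed the limit of 1 RPKM only through the clones, with a mean of 1.97 RPKM there and 0.884 in EB3. Bach1 (87699199 to 87733591), a heme-sensitive repressor of oxidative stress genes, had 9.29, 14.2 and 10.2 RPKM in the clones and 4.85, 7.96 and 8.59 RPKM in EB3. The groups did not overlap, but B8 stood above the other clones and EB3-0 below the other EB3 cultures. Its log2 fold change was 0.64 ± 0.23 (SE; limma, adjusted p = 0.210), and it was 0.40 without EB3-0. Stretches of the Bach1 exons match 2 other places, the longer of them on chromosome 4 (1731 bases, 94.74% identity).

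The other 3 members at an unadjusted p under 0.05 were all lower in the clones. Cryzl1 (91689567 to 91729047), which encodes a quinone oxidoreductase-like protein, had 9.52, 8.75 and 10.3 RPKM in the clones against 12.9, 11.9 and 11.6 in EB3 (log2 fold change -0.34 ± 0.11, SE; limma, adjusted p = 0.180). With the cDNA length and GC trends removed it was -0.16 (adjusted p = 0.389 from limma). Its listed span, introns included, overlaps that of Gm10785 on the opposite strand over 26434 bases. The cDNAs have only 1792 bases for Cryzl1 and 1709 for Gm10785, and the overlap of their exons was not measured. Whether strand was used in counting was not stated. The gene 1110004E09Rik, Cfap298 in RefSeq, had 26.7, 28.0 and 28.3 RPKM against 34.9, 31.9 and 32.4 (-0.25 ± 0.09, adjusted p = 0.189 from limma). Wrb, Get1 in RefSeq, serves the insertion of tail-anchored proteins into membranes. It had 26.4, 25.0 and 28.9 RPKM against 30.5, 33.4 and 31.2 (-0.24 ± 0.09, adjusted p = 0.238 from limma). A 2-sided exact permutation test on each of the 6 genes had p = 0.1, which no split of 3 against 3 libraries can undercut. In all, the groups did not overlap for 9 of 52 members (17.3%), against 26.1% of tested genes. Beside these 6 they were Synj1, higher in the clones, and Cct8 and 2610039C10Rik (Mis18a in RefSeq), lower.

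**Figure D3:**
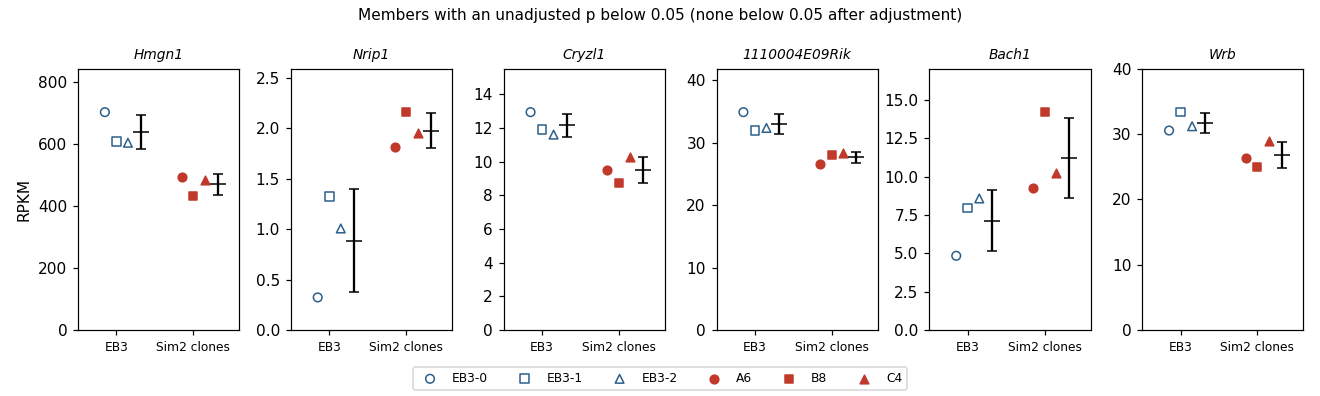
RPKM of the 6 members with an unadjusted p under 0.05 in each library, each on an axis from 0. Open blue points are EB3 cultures, filled red points clones, and the bars give the mean and SD of each group (n = 3). EB3-0 is the most distant EB3 culture for Hmgn1, Nrip1, Bach1, Cryzl1 and 1110004E09Rik, but not for Wrb.

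Hmgn1 and Wrb lie next to each other on opposite strands, and Bach1 is the marker gene with the largest fold change. Their promoter windows from RefSeq (GRCm38.p6, 250 bases before to 50 after the start) are shown for these reasons. Capitals mark the core motif ACGTG bound by SIM2 with its partner ARNT, searched on both strands (CACGT on the other). The windows are chr16:96127676-96127975 (minus strand) for Hmgn1, chr16:96145150-96145449 (plus strand) for Wrb and chr16:87698704-87699003 (plus strand) for Bach1.
Hmgn1: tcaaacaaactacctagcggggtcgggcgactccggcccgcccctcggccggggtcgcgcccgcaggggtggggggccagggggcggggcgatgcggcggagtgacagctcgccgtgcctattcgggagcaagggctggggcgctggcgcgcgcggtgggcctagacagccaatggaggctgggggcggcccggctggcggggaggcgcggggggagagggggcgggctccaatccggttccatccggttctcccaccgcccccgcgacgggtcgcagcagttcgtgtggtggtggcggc
Wrb: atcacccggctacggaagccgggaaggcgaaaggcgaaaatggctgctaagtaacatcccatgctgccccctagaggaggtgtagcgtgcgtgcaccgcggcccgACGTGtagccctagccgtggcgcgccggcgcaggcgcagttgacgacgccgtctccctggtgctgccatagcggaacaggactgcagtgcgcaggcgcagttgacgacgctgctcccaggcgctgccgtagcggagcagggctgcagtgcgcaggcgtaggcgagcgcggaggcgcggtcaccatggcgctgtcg
Bach1: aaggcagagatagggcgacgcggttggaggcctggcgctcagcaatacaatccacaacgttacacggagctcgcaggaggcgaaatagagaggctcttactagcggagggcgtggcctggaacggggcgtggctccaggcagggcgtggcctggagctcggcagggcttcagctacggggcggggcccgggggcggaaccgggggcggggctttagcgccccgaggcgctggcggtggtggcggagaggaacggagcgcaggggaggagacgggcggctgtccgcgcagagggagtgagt
The window of Wrb holds the motif at 1 place, and those of Hmgn1 and Bach1 hold none. A window was found for 47 of the 52 expressed members, and 7 of their 56 windows (12.5%) hold the motif, against 19.6% of all 32851 windows. Such a match describes letters only.

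By function, 0 genes were called in each list of members. The list of transcription and chromatin genes had 11 of 16 members expressed, 7 of them higher and 4 lower, with a median log2 fold change of 0.02. Without EB3-0 the direction turned, with 4 higher and 7 lower and a median of -0.10. Its range was the widest, from Hmgn1 (-0.44) to Nrip1 (0.91). Gabpa, an ETS factor, had a mean of 39.1 RPKM, and Ets2 had 9.29, 11.9 and 6.36 RPKM in the clones against 8.96, 8.18 and 7.77 in EB3. The clones spread on both sides of EB3 for Ets2.

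The list of kinases and signalling regulators had 8 of 9 members expressed, 5 of them higher and 3 lower, with a median of 0.05. Without EB3-0 this turned to 3 higher and 5 lower, with a median of -0.065. The list includes the kinase gene Hunk (19.7 RPKM on average), Dyrk1a, the calcineurin inhibitor gene Rcan1 (14.2) and the deubiquitinase gene Usp16 (13.3). Over the list, the fold changes ran from -0.23 for Usp25 to 0.17 for Hunk on the log2 scale, and Hunk was at 0.024 without EB3-0. Of the interferon and cytokine genes, 3 of 6 were expressed. The receptor gene Ifnar1 had a mean of 12.4 RPKM and its partner Ifnar2 of 2.60, and Ifngr2, for a chain of the interferon gamma receptor, had 2.59. Their fold changes were 0.02, -0.20 and -0.13. The antiviral response gene Mx1 had at most 2 reads in any library, and Mx2 had 0.

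Of 15 amyloid, neural surface, synapse and channel genes, 6 were expressed, 4 higher and 2 lower in the clones. Their median log2 fold change was 0.07, and without EB3-0 it was -0.014, with 3 higher and 3 lower. Synj1, a phosphatase of synaptic vesicle recycling, had 4.16, 4.11 and 4.04 RPKM in the clones and 2.49, 3.77 and 3.30 in EB3. Its 3 clones lay above EB3 (0.34 ± 0.17, SE; limma, adjusted p = 0.336), and the fold change was 0.19 without EB3-0. Cxadr went the other way, with 3.96, 5.79 and 4.43 RPKM in the clones and 3.99, 6.81 and 7.33 in EB3. The groups overlapped for Cxadr. Its log2 fold change was -0.30 (limma, adjusted p = 0.554), and -0.55 without EB3-0 (limma, adjusted p = 0.0988). The RNA processing, ribosome and replication list had 5 of 6 members expressed and a median of 0.01 (-0.081 without EB3-0), and the extracellular matrix, junction and epithelial list 2 of 13, with -0.34 for Cyyr1 and 0.11 for C2cd2. All 5 members of the folding, proteasome and membrane insertion list were expressed, 3 of them lower (median -0.20). Psmg1 had the lowest fold change of the list, at -0.27 (limma, adjusted p = 0.329), and it was at -0.15 without EB3-0. Cct8 had 268, 263 and 280 RPKM in the clones and 334, 308 and 293 in EB3, or -0.20 ± 0.09 on the log2 scale (SE; adjusted p = 0.297 from limma). With the cDNA length and GC trends removed it was -0.045 (adjusted p = 0.818 from limma).

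All 7 redox and mitochondrial genes were expressed, and all had a fold change below 0 (median -0.15). Without EB3-0 it was 4 of 7 (median -0.07), and with the cDNA length trend removed also 4 of 7 (-0.13). Sod1 (90220987 to 90226569) had 329, 328 and 308 RPKM in the clones and 424, 305 and 298 in EB3. EB3-0 alone was high, and EB3-1 and EB3-2 lay below all 3 clones. The log2 fold change of Sod1 was 0.092 without EB3-0, against -0.07 with it. A stretch of chromosome 6 matches Sod1 over 613 bases with 97.23% identity, so reads may be shared.

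EB3-0 stood apart for the members in relation to cDNA length. It was the lowest or the highest of the 6 libraries for 38 of the 52 expressed members. For all 10 members with a cDNA under 1500 bases, EB3-0 was above the mean of EB3-1 and EB3-2, with a median log2 difference of 0.35. For the 17 members of 5000 bases and over the median was -0.38, and EB3-0 was above the others for 1 of them. The most distant member was A630089N07Rik, with 1.26 RPKM in EB3-0 against 5.19 and 4.80 in EB3-1 and EB3-2 and 2.82 to 4.63 in the clones. Across the 52 members Pearson's r of this difference with log2 length was -0.59, and -0.56 across the 11595 tested genes; this describes 3 libraries, and genes are not replicates. The fold change followed the same order, with a median of -0.20 for the short members, 0.01 for the 25 in between and 0.08 for the long ones. Without EB3-0 these medians were -0.09, -0.12 and -0.08.

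**Figure D4:**
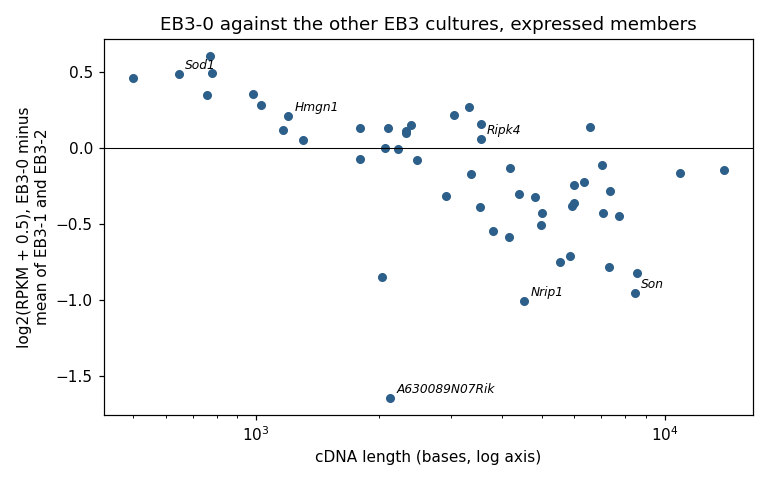
Difference of log2(RPKM + 0.5) between EB3-0 and the mean of EB3-1 and EB3-2 against cDNA length (log axis), 1 point per expressed member. Short members such as Sod1 lie above 0 and long ones such as Son below, with a Pearson's r of -0.59.

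Among the clones, B8 differed most in single members. Tiam1 had 19.7 RPKM in B8 but 6.07 in A6 and 6.75 in C4, and 5.67 to 10.4 RPKM in EB3. Its SD over the clones was 0.90 on the log2 scale, the highest of the members, against a median of 0.12. Cyyr1 was low in B8, at 0.325 RPKM, with 1.59 in A6 and 1.06 in C4. It passed the limit of 1 RPKM through EB3, with a mean of 1.33 RPKM there and 0.991 in the clones. Over the EB3 cultures the median SD was 0.19, while EB3-1 and EB3-2 differed by a median of 0.07.

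Of the 139 members, 9 are on the study's list of genes nearest to a SIM2 binding site, as are 1823 of all 22602 listed genes. Of these 9 members, 6 were expressed: Mrpl39, Jam2, Scaf4, Hunk, Ifnar1 and Ets2. None was called. Their fold changes ran from -0.21 for Mrpl39 (-0.11 without EB3-0) to 0.17 for Hunk, with a median of 0.07 and 5 of 6 above 0. Without EB3-0 the median was 0.0078, with 4 of 6 above 0. Scaf4, which encodes a regulator of transcript termination, had a mean of 26.4 RPKM and a fold change of 0.04 ± 0.11 (SE; limma, adjusted p = 0.863).

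Other counterparts of HSA21 genes lie on mouse chromosomes 17 and 10. Of 18 such genes listed here for chromosome 17, 12 were expressed, with a median log2 fold change of 0.06, and of 31 for chromosome 10, 25 were, with a median of 0.002. In neither set was a gene called. On the rest of chromosome 16 upstream of 75 Mb the median was -0.01 over 294 tested genes, with 3 called, all lower. Over all 11595 tested genes 81 (0.699%) were called, 40 higher and 41 lower, so these counts say little about sets of this size. Differences between these sets and the distal stretch were not tested.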

How the data were processed

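Messenger RNA libraries of 3 Sim2 clones and 3 EB3 cultures, grouped by their labels, were sequenced as paired reads on 1 lane. The authors aligned reads to mm9 (BWA, defaults), took exon coverage per RefSeq gene from their own pipeline and deposited it as RPKM; versions, strand use and the treatment of reads with several positions are not given in the sources used here. Reads were recovered from RPKM times cDNA length, which moves in equal steps within each library (100% of values within 0.05 of a whole read). The study's own test models counts; since RPKM are not counts, limma 3.58.1 (R 4.3.3, lmFit, eBayes with an intensity trend, no covariate) was fitted on log2(RPKM + 0.5) over the 11595 genes with a mean of at least 1 RPKM, with Benjamini-Hochberg adjustment and a threshold of 0.05. Fold changes on this scale understate changes of low genes. The fit was tested on simulated data. The 2-sided exact permutation test was applied to single genes. Named genes were the 6 markers, called members, the 10 highest by mean, the 5 largest fold changes either way, up to 4 per list, genes on the SIM2 site list and those nearest the RPKM limit; Tiam1, A630089N07Rik and the silent genes were named after their values were seen. The members and lists were chosen with earlier results of these data known. Copies of exons (mm9 annotation) were sought with BLAST 2.17.0 (at least 200 bases at 90% identity). Alternatives were pseudocounts of 0.1 and 1, no filter, median-centred libraries, removal of trends with cDNA length and GC content (natural splines with 5 degrees of freedom, GC for 96.1% of tested genes), EB3-1 and EB3-2 averaged, limma-voom on the recovered reads, and each library left out. No column of sample values was left out.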

Additional observations from a re-analysis of the deposited data

How the results depend on the processing

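The count of called members was 0 in 11 of the 14 alternatives. It was 1, Hmgn1, with the cDNA length trend removed, with the cDNA length and GC trends removed, and without EB3-0. Leaving out 1 library gave a count of 0 to 1 and a median log2 fold change of the members from -0.10 (without EB3-0) to 0.024 (without EB3-1). The median was -0.066 with the cDNA length trend removed. The cause was not tested. For Hmgn1 the fold change stayed between -0.48 and -0.37 over all alternatives, with adjusted p from limma of 0.0274 to 0.316. Of 37 expressed members named by the rule, 17 had the same sign in all 14 alternatives, and none besides Hmgn1 was called in any. The number of expressed members was 55 at a limit of 0.5 RPKM and 45 at 2 RPKM. No paired analysis was possible because the groups share no replicate numbers. At the depth reached, 1 read in a cDNA of 2000 bases is worth 0.0177 to 0.0199 RPKM, so a difference in silent members with a few reads was not readily detectable at this depth. With no filter on low values, 41 silent members were tested and 0 called.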

Other observations

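The 5 members under 1 RPKM whose groups did not overlap had few reads, and none passed the test with no filter on low values (limma, adjusted p of 0.149 or more). Clic6, a chloride channel gene, had 16, 24 and 16 reads in A6, B8 and C4 and 6, 7 and 8 in EB3-0, EB3-1 and EB3-2, or 0.190 ± 0.0517 against 0.0702 ± 0.0116 RPKM (SD, n = 3 each). Il10rb, a chain of the interleukin 10 receptor, had 29, 26 and 25 reads in the clones and 23, 18 and 13 in EB3. Kcnj15 had 2 to 4 reads in the clones and 0 to 2 in EB3, and 4930563D23Rik had 2 to 6 and 0 to 2; for both, the groups met at 2 reads and were apart in RPKM only. Fam3b had 0 reads in each clone and 1 in each EB3 culture. These genes were named after their values were seen. Adamts1, which encodes a secreted protease, varied within both groups, with 66, 17 and 187 reads in the clones and 51, 193 and 184 in EB3.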
